A study of Mus musculus with 4 samples.

Results

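The 5 mouse dopamine receptor genes, Drd1, Drd2, Drd3, Drd4 and Drd5, were chosen by symbol out of 32285 annotated genes and were followed across the neuron and glial types of the lateral septum (LS) and the striatal tissue beside it. RNA of single nuclei was counted by unique molecular identifiers (UMIs) in 4 libraries, each made from LS tissue pooled from 3 male mice recorded as aged 6 to 8 weeks. The study itself states that its mice were bought at 8 weeks. The libraries C57J 1 and C57J 2 came from C57BL/6JNifdc mice, called C57J here, 1 library came from BALB/c mice, and 1 came from nude mice, which lack Foxn1 on the BALB/c background and therefore lack T cells. C57J 1 was the library of batch 1, and C57J 2, nude and BALB/c formed batch 2. The labels name no treatment. Differences among the pooled mice of 1 library could not be measured.

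Dopamine receptors are G protein-coupled receptors that fall into a D1-like family, Drd1 and Drd5, which stimulate adenylyl cyclase, and a D2-like family, Drd2, Drd3 and Drd4, which inhibit it and open potassium channels. In the striatum, Drd1 marks the projection neurons of the direct pathway and Drd2 those of the indirect pathway, whereas Drd3 is best known from the ventral striatum and the islands of Calleja. The LS receives dopamine fibers from the midbrain, and its neurons are mostly GABAergic.

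On GRCm38 with GENCODE annotation, Drd1 (ENSMUSG00000021478) occupied chr13:54051183-54055705 on the minus strand with 2 exons. Drd2 (ENSMUSG00000032259) occupied chr9:49340627-49408177 on the plus strand with 8 exons, and Drd3 (ENSMUSG00000022705) occupied chr16:43754026-43822932 on the plus strand with 7 or 8 exons per transcript. Drd4 (ENSMUSG00000025496) lay at chr7:141292006-141296464 and Drd5 (ENSMUSG00000039358), a gene with 1 exon, at chr5:38319367-38322518, both on the plus strand. The bases upstream of the RefSeq start are printed for Drd2 and Drd3, the receptors with the most UMIs in LS neurons, and capitals mark CG dinucleotides, which read the same on both strands. For Drd2 the window was chr9:49340153-49340402, outside the GENCODE gene, and for Drd3 it was chr16:43761971-43762207, which lies within the gene upstream of an internal first exon and leaves out the bases of the window that are exonic.
Drd2: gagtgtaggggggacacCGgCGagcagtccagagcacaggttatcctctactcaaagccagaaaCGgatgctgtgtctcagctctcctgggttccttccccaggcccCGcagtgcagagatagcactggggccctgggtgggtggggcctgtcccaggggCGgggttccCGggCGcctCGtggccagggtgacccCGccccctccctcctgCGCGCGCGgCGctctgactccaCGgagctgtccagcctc
Drd3: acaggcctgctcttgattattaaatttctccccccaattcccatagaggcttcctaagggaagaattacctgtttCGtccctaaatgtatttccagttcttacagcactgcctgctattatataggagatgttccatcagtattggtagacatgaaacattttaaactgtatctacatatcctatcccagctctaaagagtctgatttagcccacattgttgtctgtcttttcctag
The 250 bases upstream of the start held 15 CG dinucleotides in Drd2 and 1 in Drd3. As many as 15 were found in 27.3% of 32851 RefSeq promoters of the same length, and as few as 1 in 18.8%, the median being 6. Drd5 had 35, a number reached by 2.97% of promoters, and Drd4 had 12, whereas the annotated starts of Drd1 had 5 and 15. Parts of these windows lay within GENCODE exons. Outside exons, the Drd5 window kept 108 bases with 16 CG dinucleotides and the Drd4 window 238 bases with 10. For Drd1, the window with 15 kept 203 bases with 11. These counts describe the sequence only.

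After quality limits and removal of predicted doublets, 13075, 12489, 12948 and 10913 nuclei from C57J 1, C57J 2, nude and BALB/c were retained, at a median depth of 5385, 4089, 4502 and 8402 UMIs. Between 29 and 63 barcodes were shared by any pair of libraries, at most 0.478% of the smaller one. The nuclei were clustered into 58 types with the 5 receptor genes left out of the clustering genes, and types without a marker-based name were called by their leading genes. All 6 LS markers (such as Trpc4 and Dgkg) and all 5 striatal markers (such as Rarb) reached their highest level in a type named for them. Of the 5 direct pathway markers this held for Tac1 and Isl1, and of the 5 indirect pathway markers for Adora2a and Gpr52, so these names rest on part of their lists. Because types were named by these markers, their highest levels follow in part from the naming. The LS marker Dach2 had a lower median over the LS types compared (10.4 CPM) than over the other types (18.8 CPM). Striatal neurons made up 9.71% of nuclei in C57J 1 but 4.12%, 2.56% and 3.34% in C57J 2, nude and BALB/c, which sets C57J 1 apart. Levels are given as UMIs of a gene per 1000000 UMIs of the type (CPM), as the mean ± SD of 4 libraries, for the 53 types with at least 10 nuclei in every library. Because types are clusters of the same nuclei, differences between types are described without a test.

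Drd2 was the receptor with the most UMIs in LS neurons. Of 10725 Drd2 UMIs in retained nuclei, 69.2% lay in LS neurons, which contributed 60.4% of all UMIs, and 18.4% lay in striatal neurons, which contributed 4.68%. Drd3 had 5483 UMIs, of which 61.7% lay in LS neurons, 21.9% in striatal neurons and 7.31% in non-neuronal nuclei. Drd1 had 2449 UMIs, with 31.1% in LS neurons and 38.2% in striatal neurons. Drd5 had 309 UMIs and Drd4 had 1. UMI numbers are not compared between receptors as measures of abundance, since the genes differ in length and exon number.

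In LS neurons as a whole, Drd2 was at 43.8, 36.8, 41.9 and 37.2 CPM in C57J 1, C57J 2, nude and BALB/c. The 4 libraries lay close together and the 2 strain backgrounds overlapped. Among the 23 LS types the mean level ranged from 4.98 CPM in Eya4 Pax6 LS neurons to 90.4 ± 3.93 CPM in Met Stac2 LS neurons, with a median of 35.1 CPM. Met Stac2 LS neurons, named for the hepatocyte growth factor receptor Met, held 94.4, 85.4, 92.5 and 89.2 CPM. Col25a1 Kynu LS neurons followed at 75.5 ± 10.7 CPM (66.2, 74.4, 90.8 and 70.7), and the ranges of these neighbours overlapped. Drd2 was thus spread over many LS types rather than held by 1 of them.

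Mean Drd2 levels between 50 and 63 CPM were found in Mob3b Stac2 (62.1 ± 9.29), Met Ddr2 (59.8 ± 14.9), Sst Nts (51.8 ± 11.8), Plod2 Fbxw13 (50.6 ± 10.3) and Gfra1 Bmp6 (50.4 ± 8.49) LS neurons. Cpa6 Col15a1, Col9a1 Trpc6, Cdh23 Ndst4, Pth2r, Calcr Otx2os1 and Crhr2 Dach2 LS neurons lay between 32.2 and 41.6 CPM, and Esr1 Otx2os1 LS neurons at 25.3 ± 5.25 CPM. In the order of all 53 types, the range of each LS type with a mean of 20 CPM or more overlapped that of the type after it. At the other end, Phex Tmem132c, Cpa6 Mctp2, Rai14 Lama3, Cpa6 Pappa, Igf1 Spp1 and Eya4 Pax6 LS neurons had means of 12.8 CPM or less. Glial types served as a rough reference for free RNA: oligodendrocytes, microglia, oligodendrocyte precursors, Lrig1 astrocytes and Ranbp3l astrocytes had means of 9.24 to 14.6 CPM. Their median depths were 1628 to 3086 UMIs, against 5778.5 to 10059.5 UMIs in the LS types. An equal number of free UMIs per nucleus would therefore weigh more in the glial CPM, and free RNA itself was not measured. In 15 of the 23 LS types, Drd2 exceeded all 5 of these glial types in every library.

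In striatal neurons Drd2 followed the indirect pathway. Upb1 Adora2a indirect pathway-like neurons, which also carried the adenosine receptor gene Adora2a, held 485, 385, 457 and 507 CPM, a mean of 458.6 ± 53.1 CPM over 469 nuclei. L3mbtl4 Dach1 indirect pathway-like neurons held 477, 571, 234 and 457 CPM, and the ranges of both types overlapped. Cartpt Baz1a striatal neurons came next at 113, 249, 51.2 and 70.1 CPM, a wide range over 129 nuclei. Direct pathway-like neurons as a whole averaged 6.61 ± 5.94 CPM, and in the Pkib Sntb1 type 7 of 432 nuclei had a Drd2 UMI.

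**Figure D1:**
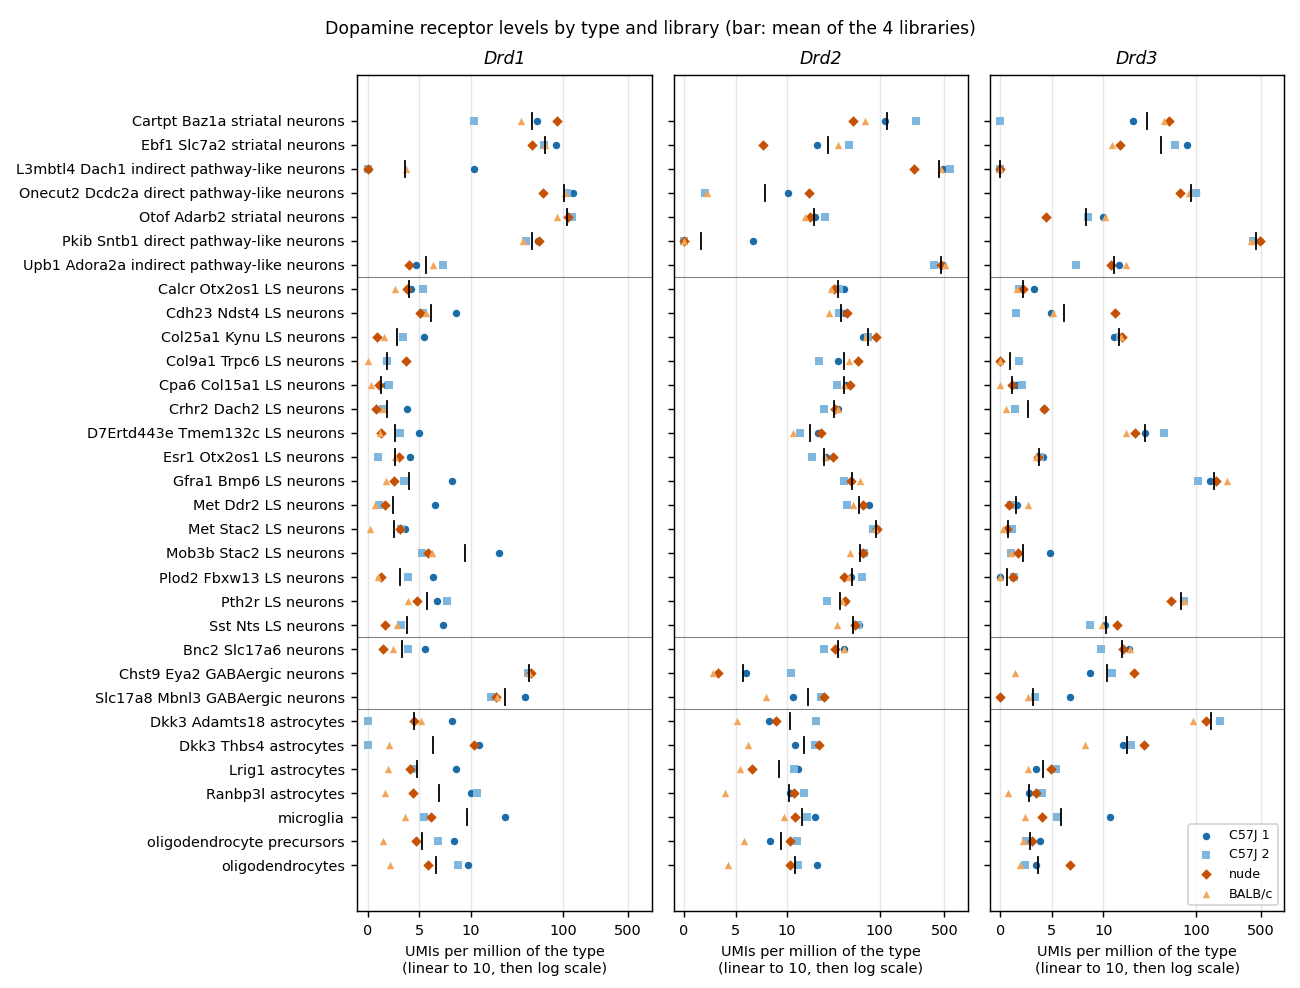
Drd1, Drd2 and Drd3 in CPM (x axis, linear to 10 and log beyond) in types that reach 20 CPM for any of these genes and in reference glial types (y axis, grouped as striatal, LS, other neurons and non-neuronal). Unnamed non-neuronal nuclei (32.3 CPM of Drd2) and low-depth neurons with glial RNA also reach 20 CPM of Drd2 but are not shown. Points are the 4 libraries and bars their mean. Drd2 is spread over many LS types, whereas Drd3 is high in Pkib Sntb1 direct pathway-like neurons (446.6), Gfra1 Bmp6 LS neurons (156.6) and Dkk3 Adamts18 astrocytes (145.6).

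Drd3 was held by few types. Its highest level was in Pkib Sntb1 direct pathway-like neurons, which express Tac1, the gene of substance P, with 489, 412, 495 and 391 CPM in C57J 1, C57J 2, nude and BALB/c (446.6 ± 53.2). All 4 libraries lay above every library of every other type in the order. The 432 nuclei of this type came mostly from C57J 1, which gave 322 of them, with 55, 29 and 26 in the other libraries. At 46.1 ± 9.35 CPM its Drd1 was below that of Onecut2 Dcdc2a direct pathway-like neurons, which held 87.9 ± 16.4 CPM of Drd3 beside 100.5 ± 28.5 CPM of Drd1. Pdyn, the prodynorphin gene and a direct pathway marker, was at 12.3, 6.53, 0 and 0 CPM in the Pkib Sntb1 type.

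Among LS neurons, Gfra1 Bmp6 LS neurons, named for the GDNF coreceptor Gfra1, held 142, 104, 165 and 215 CPM of Drd3 (156.6 ± 46.5, 909 nuclei). Both libraries of BALB/c background were above both C57J libraries. Pth2r LS neurons, named for the parathyroid hormone 2 receptor, followed with 72.4, 73.9, 54.3 and 74.8 CPM (68.9 ± 9.75, 1680 nuclei), and D7Ertd443e Tmem132c LS neurons had 28.1 ± 12.01 CPM. These were the 3 of 23 LS types with a mean of at least 20 CPM. The median over LS types was 3.04 CPM, and Drd3 exceeded the 5 glial types in every library in 4 LS types, the fourth being Col25a1 Kynu LS neurons at 14.96 ± 1.32 CPM. Met Stac2 LS neurons, the LS type with the most Drd2, had 0.748 CPM of Drd3.

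A high Drd3 level was also found outside neurons, in 1 of 4 astrocyte types. Dkk3 Adamts18 astrocytes held 178, 182, 130 and 92.4 CPM (145.6 ± 42.7, 618 nuclei). Dkk3 Thbs4 astrocytes held 16.4, 19.8, 27.4 and 8.22 CPM (18.0 ± 7.97, 412 nuclei). Lrig1 and Ranbp3l astrocytes were at 4.13 ± 1.28 and 2.75 ± 1.46 CPM, the level of oligodendrocytes (3.64 ± 2.18). In every library the Dkk3 Adamts18 type was above the other 3 astrocyte types, so Drd3 divided the 2 types that both carried Dkk3.

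Neuronal RNA was measured in the same astrocytes. The 4 neuronal markers Snap25, Syt1, Rbfox3 and Grin2b summed to between 1006 and 2446 CPM in the libraries of Dkk3 Adamts18 astrocytes and to between 1009 and 2387 CPM in those of Dkk3 Thbs4 astrocytes, against a mean of 6301 CPM in LS neurons, and none of the 4 was at 0. Tac1, which the Pkib Sntb1 neurons with the highest Drd3 hold at 296.5 ± 109.8 CPM, was at 14.8 CPM on average in Dkk3 Adamts18 astrocytes and at 24.3 CPM in Dkk3 Thbs4 astrocytes. Isl1, the other marker of these neurons, was at 10.2 and 11.6 CPM. Trpc4, an LS marker, was at 153.6 and 134.5 CPM with the libraries pooled, against 860.9 CPM in Gfra1 Bmp6 LS neurons. The 2 Dkk3 types held similar sums of the 4 neuronal markers beside a Drd3 level that differed. Drd1 and Drd2 did not separate the 2 Dkk3 types, at 4.46 and 6.34 CPM for Drd1 and at 10.7 and 15.1 CPM for Drd2. The part of neuronal RNA in the Drd3 values was not tested.

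**Figure D2:**
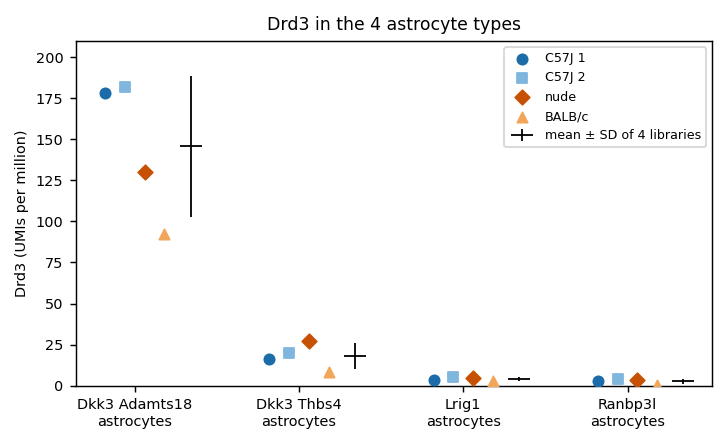
Drd3 in CPM (y axis) in the 4 astrocyte types (x axis). Points are the 4 libraries, and the black mark is their mean ± SD. All 4 libraries of Dkk3 Adamts18 astrocytes (92.4 to 182) lie above all libraries of the other astrocyte types, the highest of which is 27.4.

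Drd1 was highest in striatal and a few other GABAergic neurons. Otof Adarb2 striatal neurons held 115.5, 122.6, 111.6 and 85.9 CPM (108.9 ± 16.0, 366 nuclei), and Onecut2 Dcdc2a direct pathway-like neurons held 127, 110.5, 60.3 and 104 CPM, so the ranges of the highest types overlapped. Ebf1 Slc7a2 striatal neurons followed at 63.5 ± 15.1 CPM. Chst9 Eya2 GABAergic neurons, which were neither LS nor striatal by their markers, had 41.4, 41.0, 44.7 and 42.1 CPM, with the smallest spread among these types. Slc17a8 Mbnl3 GABAergic neurons had 23.3 ± 10.2 CPM. Indirect pathway-like neurons as a whole had 4.95 ± 1.17 CPM.

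In the 23 LS types, mean Drd1 levels ran from 1.33 to 11.7 CPM, and the 5 glial types from 4.79 to 9.67 CPM. No LS type was above all 5 glial types in every library. At a depth of 1000 UMIs per nucleus, 0.490% of LS neurons had a Drd1 UMI (exact 95% interval 0.400 to 0.593), compared with 0.859% of oligodendrocytes (0.627 to 1.15). At full depth the shares were 3.38% and 1.49%, with median depths of 7836 and 2340 UMIs. An equal number of free UMIs per nucleus would weigh more in the shallower oligodendrocytes, both in CPM and after thinning. The part of free RNA in the Drd1 values of LS neurons was not tested. The LS type with the most Drd1, Cpa6 Pappa, had 15.6, 16.9, 6.49 and 7.63 CPM in C57J 1, C57J 2, nude and BALB/c, where the highest glial type of each library had 23.4, 11.6, 6.10 and 3.66 CPM.

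Drd5, the second D1-like receptor, was near the limit of detection everywhere. Its highest well-covered level was 3.74 ± 2.14 CPM in Meis1 Gbx1 GABAergic neurons (3.83, 0.897, 4.14 and 6.09 CPM), where 46 of 1054 nuclei had a UMI at a median depth of 10288 UMIs. At 1000 UMIs the share was 0.475% (0.155 to 1.11), beside 0.172% in oligodendrocytes. No type exceeded the 5 glial types in every library. The mean in LS neurons was 0.734 ± 0.170 CPM. Drd4 gave 3 UMIs in all barcodes and 1 in retained nuclei, in a Ranbp3l astrocyte of the nude library. In LS neurons 0 of 21232 nuclei had a Drd4 UMI, which allows up to 0.0141%. These intervals and limits cover counting error only and refer to nuclei with a UMI, not to nuclei that express the gene.

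Shares of nuclei were compared after thinning each nucleus to 1000 UMIs, since depth differed between types. Drd2 was found in 36.7% of Upb1 Adora2a indirect pathway-like neurons (exact 95% interval 32.3 to 41.2), in 8.87% of Met Stac2 LS neurons (7.51 to 10.4) and in 3.66% of all LS neurons (3.41 to 3.92). In glia the share was 1.49% in oligodendrocytes (1.18 to 1.85) and 1.19% in microglia (0.667 to 1.95). Without thinning, the shares were 85.5%, 47.1% and 23.1% in those neurons and 2.80% and 2.58% in the glia, at median depths of 5811, 7985, 7836, 2340 and 1628 UMIs. Thinning left out 79 oligodendrocytes and 98 microglia that were shallower, and no neuron of these types. The neuronal shares stayed above the glial ones at equal depth.

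For Drd3 the thinned share was 33.8% in Pkib Sntb1 direct pathway-like neurons (29.3 to 38.5), 13.0% in Gfra1 Bmp6 LS neurons (10.9 to 15.3) and 12.6% in Dkk3 Adamts18 astrocytes (10.0 to 15.4). It was 2.19% in Dkk3 Thbs4 astrocytes (1.01 to 4.12), 0.410% in Lrig1 astrocytes, 0.344% in oligodendrocytes and 0.714% in microglia. Dkk3 Adamts18 and Dkk3 Thbs4 astrocytes had median depths of 2244 and 2311 UMIs, and 20.2% and 3.16% of them had a Drd3 UMI without thinning. By library, the thinned share of Dkk3 Adamts18 astrocytes was 14.6% and 16.2% in C57J 1 and C57J 2, and 9.73% and 7.95% in nude and BALB/c, and that of Dkk3 Thbs4 astrocytes was 0.943%, 3.66%, 4.30% and 0.769%. The difference between the 2 Dkk3 types was therefore also present at equal depth and in each library.

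**Figure D3:**
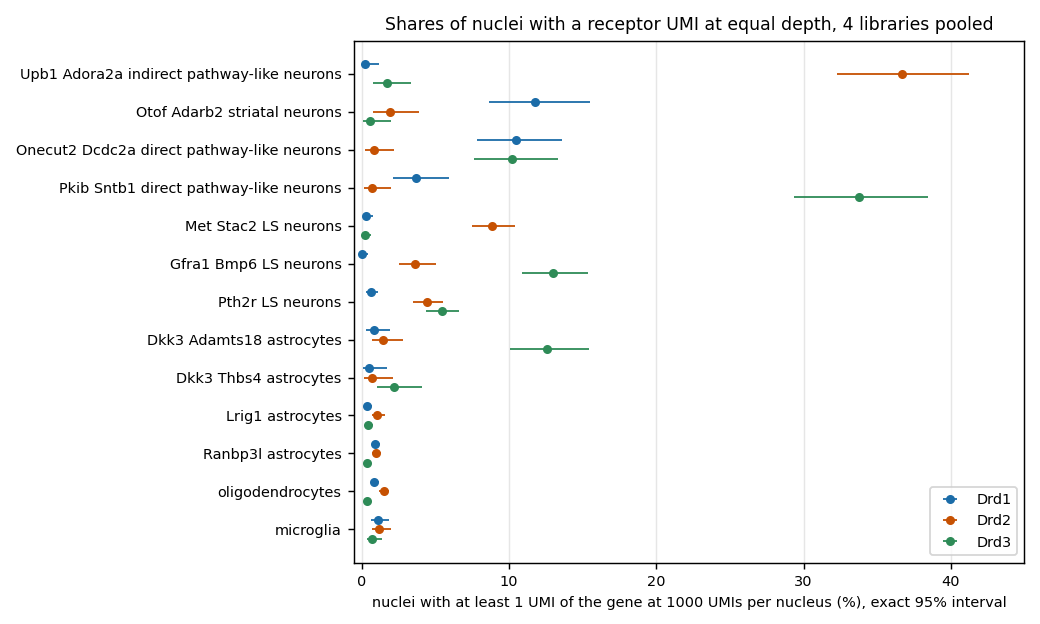
Percentage of nuclei with at least 1 UMI of Drd1, Drd2 or Drd3 at 1000 UMIs per nucleus (x axis) in 13 types (y axis), all libraries pooled, with exact 95% intervals that cover counting error only. Drd2 in Upb1 Adora2a neurons (36.7%) and Drd3 in Pkib Sntb1 neurons (33.8%) stand furthest from the glial types, which are at 1.49% or less outside the Dkk3 types.

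Receptors of the direct and indirect pathway were mostly found in different striatal nuclei. Of 2480 striatal neurons, 646 had a Drd1 UMI, 650 had a Drd2 UMI and 51 had both, so Drd2 was found in 7.89% of nuclei with Drd1 and in 32.7% of nuclei without it. Cartpt Baz1a striatal neurons held both receptors as a type but seldom in the same nucleus. In this type 25 of 129 nuclei had Drd1, 55 had Drd2 and 1 had both, that is 4.00% of nuclei with Drd1 against 51.9% of those without. Drd3 in this type was found in 36.0% of nuclei with Drd1 and in 3.64% of nuclei with Drd2.

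Drd1 and Drd3 were found together in the direct pathway-like types. In Onecut2 Dcdc2a neurons 98 of 469 nuclei had both, and Drd3 was found in 46.4% of nuclei with Drd1 and in 29.5% of those without. In Pkib Sntb1 neurons 46 of 432 nuclei had both, with Drd3 in 70.8% and 73.02%, respectively. The shares in both types are at full depth, where deeper nuclei have more chance of a UMI of either gene. In Gfra1 Bmp6 LS neurons Drd2 and Drd3 were found together in 164 of 909 nuclei, with Drd3 in 51.1% of nuclei with Drd2 and 41.3% of those without. At 1000 UMIs these latter shares were 9.09% and 13.1%, on 33 nuclei with Drd2, so the order of the 2 shares depended on depth. Pth2r LS neurons had both in 115 of 1680 nuclei. These shares describe nuclei of 4 pooled libraries and were not tested.

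**Figure D4:**
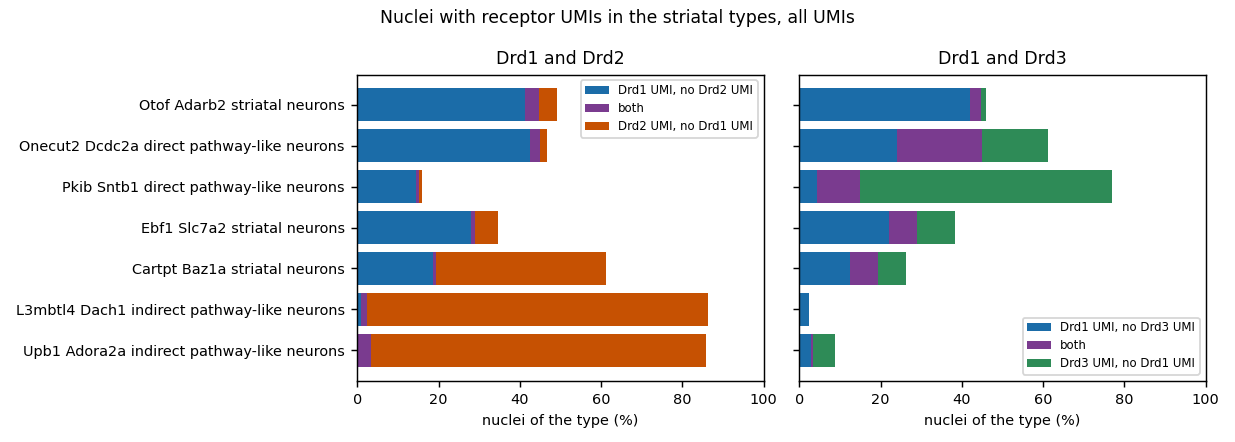
Percentage of nuclei (x axis) of the 7 striatal types (y axis) with UMIs of Drd1 and Drd2 (left) or of Drd1 and Drd3 (right), all UMIs. Purple marks nuclei with both, which are few for Drd1 and Drd2 (1 of 129 in Cartpt Baz1a neurons) and more frequent for Drd1 and Drd3 (98 of 469 in Onecut2 Dcdc2a neurons).

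To ask whether the receptors differed between strain backgrounds, UMIs of each type were summed by library, and nude and BALB/c were set against both C57J libraries. Of 62 tests of a receptor in 38 types, 0 passed an edgeR adjusted p of 0.05 with a log2 change above 0.5, where 0.644% of 463159 tests of all genes passed. Without adjustment 16 of the 62 had an edgeR p under 0.05, where 8.77% of all tests did, and DESeq2 called 0. The smallest edgeR adjusted p was 0.109. The 2 backgrounds did not overlap in 32 of 62 receptor tests (51.6%), 9 with higher and 23 with lower values in the BALB/c background, compared with 38.0% of tests over all genes (16.9% higher and 21.2% lower). Tests of 1 receptor in many types share the same libraries and are not independent. The nude and BALB/c libraries are 1 each, so neither was tested alone, and C57J 1 cannot be told apart from batch 1.

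In Gfra1 Bmp6 LS neurons Drd3 was higher in nude and BALB/c (165 and 215 CPM) than in C57J 1 and C57J 2 (142 and 104 CPM), with a log2 change of 0.63 ± 0.17 (SE, edgeR adjusted p = 0.132), and 0.92 (adjusted p = 0.0783) with the batch 2 libraries alone. In Ebf1 Slc7a2 striatal neurons Drd3 was at 15.3 and 12.4 CPM in nude and BALB/c and at 79.8 and 58.9 CPM in C57J 1 and C57J 2, a log2 change of -2.35 ± 0.37 (edgeR adjusted p = 0.111). Without C57J 1 this was -2.08 (edgeR adjusted p = 0.126). Ebf1 Slc7a2 neurons had 85 and 61 nuclei in nude and BALB/c, with 391372 and 562693 UMIs, so their Drd3 levels there rest on few Drd3 UMIs. Their Drd1 was at 82.8 and 61.3 CPM in C57J and at 46.0 and 64.0 CPM in nude and BALB/c, and there the backgrounds overlapped. Neither Drd3 difference passed the threshold, although the libraries of the 2 backgrounds lay apart in both types. For Drd3 the backgrounds did not overlap in 8 of 15 types (53.3%, beside 38.0% over all genes), 4 higher and 4 lower.

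In Dkk3 Adamts18 astrocytes the log2 change of Drd3 was -0.70 ± 0.28 (edgeR adjusted p = 0.889), with both C57J libraries above nude and BALB/c. D7Ertd443e Tmem132c LS neurons had 27.9 and 44.9 CPM of Drd3 in C57J and 22.1 and 17.5 CPM in nude and BALB/c (log2 change -0.92 ± 0.35, edgeR adjusted p = 0.375). In Pkib Sntb1 direct pathway-like neurons, the type with the most Drd3, the log2 change was -0.05 ± 0.26 and the backgrounds overlapped. Striatal neurons as a whole gave -0.86 ± 0.26 (edgeR adjusted p = 0.259), from 117, 62.8, 52.1 and 47.1 CPM. This value rested on C57J 1, which contributed 74.5% of the Pkib Sntb1 nuclei: without C57J 1 it was -0.29 and without C57J 2 it was -1.21. From such a sum alone, a larger share of 1 type and more RNA per nucleus cannot be told apart. Within the Pkib Sntb1 type, Drd3 was at 489, 412, 495 and 391 CPM in C57J 1, C57J 2, nude and BALB/c. In the same order, the type held 1052815, 153044, 72746 and 135693 UMIs of all genes. Striatal neurons together held 6830247, 2374178, 1573588 and 3632266. The part of this type in the change of the sum was not tested.

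The log2 change of Drd2 between backgrounds was 0.06 ± 0.11 in Met Stac2 LS neurons, 0.16 ± 0.18 in Upb1 Adora2a indirect pathway-like neurons and -0.01 ± 0.13 in LS neurons as a whole, with overlapping libraries in each. Drd2 was lower in both BALB/c background libraries than in both C57J libraries in 9 of 32 types and higher in 4. This share without overlap, 40.6%, was near the 38.0% over all genes. Among the lower types were Sst Nts (-0.40 ± 0.21), Plod2 Fbxw13 (-0.32 ± 0.25) and Mob3b Stac2 LS neurons (-0.20 ± 0.20). In Mob3b Stac2 LS neurons, nude (66.287 CPM) lay barely below C57J 1 (66.297 CPM). Striatal neurons as a whole were also lower without overlap (-0.30 ± 0.19). Col25a1 Kynu (0.25 ± 0.16) and Gfra1 Bmp6 LS neurons (0.31 ± 0.19) had positive log2 changes with overlapping libraries. Col9a1 Trpc6 LS neurons were higher in the BALB/c background (58.8 and 47.1 against 35.8 and 22.0 CPM), with a log2 change of 0.86 ± 0.34 (edgeR adjusted p = 0.525). Cpa6 Mctp2 LS neurons, where Drd2 was at the glial level, had 16.7 and 16.5 CPM in C57J and 7.67 and 7.66 CPM in nude and BALB/c (log2 change -1.12 ± 0.28, edgeR adjusted p = 0.109). None of these passed the threshold.

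Drd1 was lower in both BALB/c background libraries than in both C57J libraries in 10 of 15 types and higher in 1, a share without overlap of 73.3% against 38.0% over all genes. The lower types were Calcr Otx2os1, Cdh23 Vwa5b1, Cpa6 Mctp2, Cpa6 Pappa, Met Stac2 and Pth2r LS neurons, oligodendrocytes, Ranbp3l astrocytes, Onecut2 Dcdc2a and Otof Adarb2 neurons. Of these, only Onecut2 Dcdc2a and Otof Adarb2 neurons exceeded the 5 glial types in Drd1 in every library. The share thus mostly counts types with Drd1 near the glial level. In LS neurons as a whole it was at 6.52, 4.26, 3.20 and 2.74 CPM in C57J 1, C57J 2, nude and BALB/c (log2 change -0.85 ± 0.27, edgeR adjusted p = 0.204), and without C57J 1 the log2 change was -0.48. Oligodendrocytes had 9.78, 8.81, 5.81 and 2.12 CPM in the same order, and Ranbp3l astrocytes 10.2, 11.6, 4.39 and 1.64 CPM. Tac1, a marker of direct pathway neurons, followed the same order in oligodendrocytes at 33.4, 23.4, 16.9 and 10.4 CPM. In oligodendrocytes the 5 direct pathway markers summed to between 42.2 and 94.99 CPM, with none at 0, and striatal neurons were most frequent in C57J 1. The part of this RNA in the Drd1 values was not tested. In striatal types the log2 change was -0.28 ± 0.25 (Otof Adarb2) and -0.48 ± 0.25 (Onecut2 Dcdc2a) without overlap, and -0.39 ± 0.29 (Ebf1 Slc7a2) with overlapping libraries. Chst9 Eya2 GABAergic neurons, at a lower mean level of 42.3 CPM, were the 1 type that was higher (0.09 ± 0.27).

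**Figure D5:**
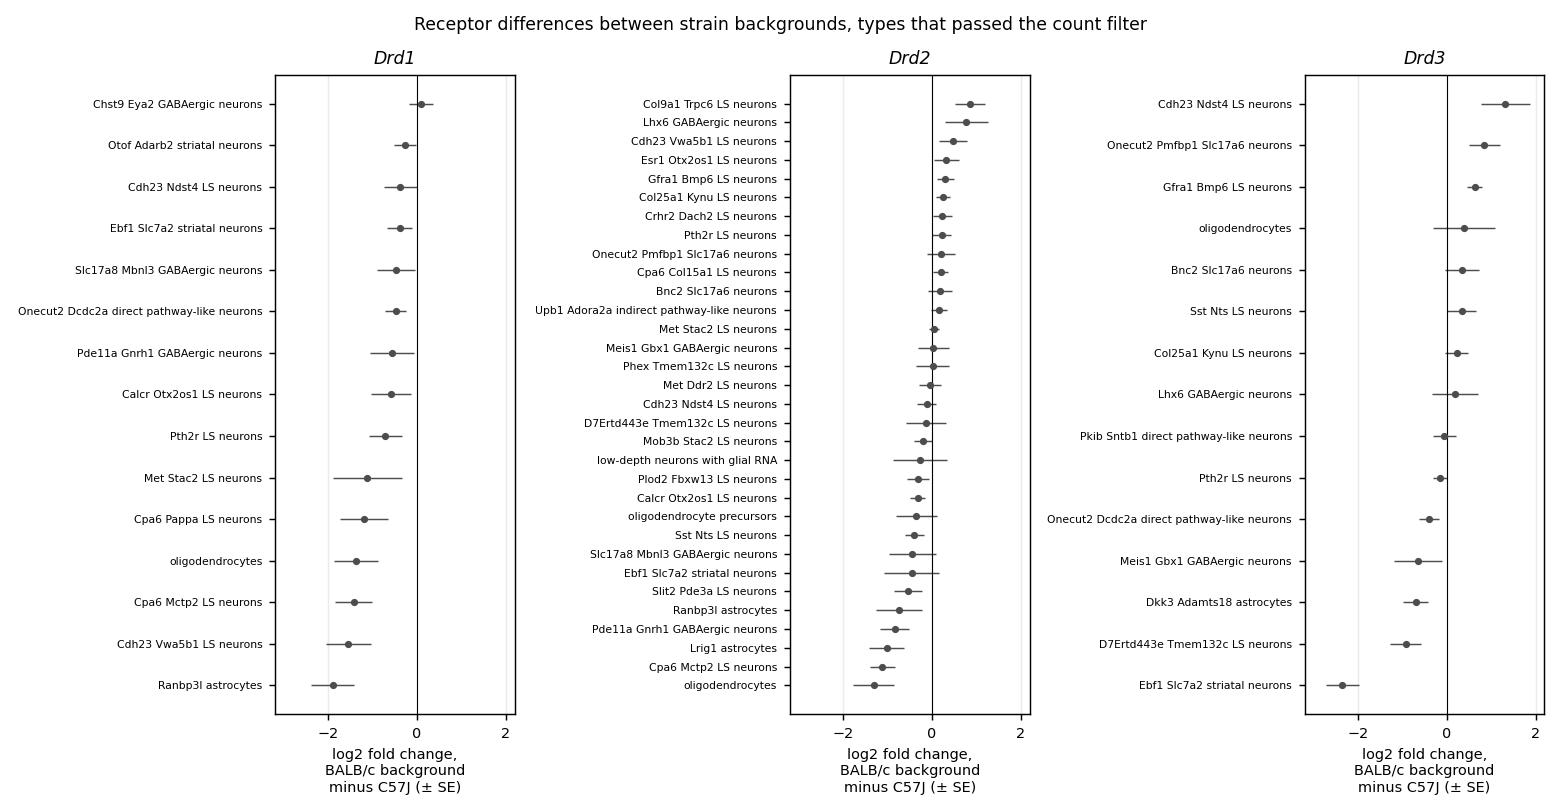
Log2 change of Drd1, Drd2 and Drd3 between the BALB/c background (nude and BALB/c) and C57J (x axis, ± SE of the edgeR fit) in the types that passed the filter on low counts (y axis, sorted), 15, 32 and 15 types. Most Drd1 values are below 0 (14 of 15), whereas Drd2 and Drd3 values lie on both sides, and none passed the adjusted threshold.

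Genes that act with the receptors were followed in 4 lists of 49 genes in all. For dopamine synthesis and transport, Th, the rate-limiting enzyme, reached at most 13.0 ± 12.4 CPM, in L3mbtl4 Dach1 indirect pathway-like neurons. Slc6a3, the dopamine transporter, reached at most 2.42 CPM. Slc18a2, the vesicular monoamine transporter, stood at 141.9 ± 16.8 CPM in Cpa6 Mctp2 LS neurons (161, 151, 127 and 129 CPM) and at 32.7 ± 5.61 CPM in LS neurons together. Among enzymes of breakdown, Maob was highest in Dkk3 Thbs4 astrocytes (78.1 ± 30.4 CPM) and Maoa in Dkk3 Adamts18 astrocytes (57.1 ± 16.0 CPM). The organic cation transporter Slc22a3 was highest in Pkib Sntb1 neurons, at 38.0, 58.8, 0 and 88.4 CPM, with a wide spread.

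On the signaling side, the phosphodiesterase gene Pde10a and Arpp21, a phosphoprotein regulated by cAMP, had the highest levels in the list of stimulatory coupling. This held in LS neurons (490 ± 64.6 and 579 ± 61.9 CPM), direct pathway-like neurons (1263 ± 109.7 and 978 ± 107 CPM) and indirect pathway-like neurons (1718 ± 214 and 1020 ± 82.0 CPM). In Dkk3 Adamts18 astrocytes the highest were Adcy2, an adenylyl cyclase (735 ± 126.1 CPM), and Gnas, the stimulatory G protein subunit (624 ± 88.5 CPM). On the inhibitory side, Rgs7, which speeds the return of inhibitory G proteins to rest, and the potassium channel subunit Kcnj3 led in LS neurons (692 ± 60.1 and 442 ± 9.08 CPM). Gnao1, the Go subunit, led in Dkk3 Adamts18 astrocytes at 1137 ± 105 CPM, beside Rgs7 at 315 ± 70.1 CPM. Of the genes of desensitization and binding, the receptor kinase Grk5 led in LS neurons (269 ± 11.6 CPM) and Grk3 in Dkk3 Adamts18 astrocytes (228 ± 26.1 CPM).

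Of 1737 tests of the listed genes in single types, 5 passed (0.288%, beside 0.644% over all genes), 4 higher and 1 lower in the BALB/c background, all in the stimulatory list (5 of 661 tests). The median log2 change was 0.01 over the listed genes and between -0.02 and 0.01 over all genes of a type. Medians per list were -0.12 for synthesis, transport and breakdown, 0.06 for inhibitory coupling, -0.07 for desensitization and binding and 0.05 for stimulatory coupling. Adcy2 fell in Plod2 Fbxw13 LS neurons from 349 and 345 CPM in C57J to 74.2 and 49.0 CPM in nude and BALB/c (log2 change -2.46 ± 0.18, edgeR adjusted p = 2.08e-06). Pde10a rose in Met Stac2 LS neurons, the LS type with the most Drd2, from 179 and 161 to 246 and 360 CPM (log2 change 0.88 ± 0.17, edgeR adjusted p = 0.0392) and in Cdh23 Ndst4 LS neurons by 0.56 ± 0.10 (adjusted p = 0.0121). Gnal, the stimulatory G protein subunit of the striatum, rose in Met Stac2 (0.53 ± 0.11, edgeR adjusted p = 0.0495) and Mob3b Stac2 LS neurons (0.50 ± 0.11, adjusted p = 0.0311). With the batch 2 libraries alone the adjusted p of Pde10a in Met Stac2 and of Gnal in both types was above the threshold, at 0.0574, 0.132 and 0.132 by edgeR. Pde10a in Cdh23 Ndst4 was above it without C57J 2 (edgeR adjusted p = 0.114). After thinning to 1000 UMIs none of the 5 passed, with Adcy2 in Plod2 Fbxw13 at a log2 change of -2.12 (edgeR adjusted p = 0.145).

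In the 5 larger groupings 2 of 207 tests of listed genes passed, beside 0.934% over all genes, and 0 of 14 receptor tests. Adcy1, an adenylyl cyclase activated by calmodulin, rose in striatal neurons as a whole from 19.3 and 17.7 CPM in C57J to 45.1 and 74.9 CPM in nude and BALB/c (log2 change 1.77 ± 0.26, edgeR adjusted p = 0.0163). Adcy2 fell in direct pathway-like neurons from 159 and 182 to 97.8 and 69.1 CPM (log2 change -1.03 ± 0.21, edgeR adjusted p = 0.0387). Neither passed at clustering resolution 2, after thinning or without BALB/c, where the edgeR adjusted p was 0.776, 0.0597 and 0.248 for Adcy1 and 0.256, 0.706 and 0.226 for Adcy2. Adcy2 also missed the threshold with DESeq2 (adjusted p = 0.0543), with stricter quality limits (edgeR adjusted p = 0.0732), with another seed (0.0563) and with the receptors among the clustering genes (0.0551). Adcy1 was at 565 CPM on average in Trabd2b Slc17a7 striatal neurons, where it was a leading gene but not a gene used to cluster the neurons. These were 1, 2, 5 and 17 nuclei of the 1270, 514, 332 and 364 striatal nuclei in C57J 1, C57J 2, nude and BALB/c. Among their leading genes was also Slc17a7, used here as a marker of glutamatergic neurons. They were counted as striatal with the larger clusters they came from, before striatal nuclei were clustered again. Their part in the result was not tested.

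The 5 genes most like each receptor were taken by Pearson correlation of log2(CPM + 1) over the 53 types, among 14325 genes. The types come from the same libraries and differ in depth, so r is a description. For Drd1 these were Rarb (r = 0.78), a retinoic acid receptor gene also used as a striatal marker, and Gja5, Pdyn, Chrm1 and Crym (0.70 to 0.76). For Drd2 they were Ankk1 (r = 0.66), Slc24a4, Ptprq, Hipk4 and Pdzd2 (0.59 to 0.60). Ankk1 (ENSMUSG00000032257, chr9:49415194-49427021) is the neighbour of Drd2, lying 7.02 kb beyond its end on the opposite strand, and reached 15.5 CPM at most. For Drd3 likeness was weaker, with Adamts19, Kcns2, Tmem198 and Sdc2 (r = 0.54 each). For Drd5 they were Pnpla6 (r = 0.59), Ldhd, Aasdhppt, Mrps35 and Gpr62, a list that rests on 6 Drd5 UMIs in low-depth neurons with glial RNA.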

How the data were processed

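Single-nucleus RNA of LS tissue was measured in 4 libraries of 10x Genomics chemistry. The deposited values were raw UMI counts per gene and barcode, made by the authors with Cell Ranger 7.0.1 on mm10; whether intronic reads were counted is not given in the sources used here. Total UMIs per library ranged from 72912922 to 125998527. Barcodes were kept between 200 and 6000 detected genes and between 300 and 50000 UMIs, if mitochondrial genes gave under 2% of these. Doublets were predicted by simulation at a rate of 0.8% per 1000 nuclei, which removed 9.66% to 11.9% of nuclei.

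Nuclei were clustered (igraph 0.11.9, scikit-learn 1.9.0) on 3000 variable genes and 40 components, then on 2000 genes and 30 components within each class, with neighbours balanced over libraries. The 5 receptors, mitochondrial genes and 6 sex-linked genes were left out of clustering. Within each class, 148 genes that differed between strain backgrounds in at least 2 broad classes were left out too. So were the genes of the pathway lists that were not markers. Names were given from marker lists, and the naming limits were set after the data were seen. The receptors and the gene lists were chosen with earlier results of these data known.

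UMIs were summed per library and type. Types with at least 20 nuclei in every library were tested with edgeR 4.0.16 (R 4.3.3; TMM, two-sided quasi-likelihood test, Benjamini-Hochberg over all genes of a type), nude and BALB/c against C57J, with a call at an adjusted p under 0.05 and an absolute log2 change above 0.5. DESeq2 1.42.0 was an alternative. Each library pools 3 mice, so p-values measure the spread between libraries. Within the BALB/c background this spread includes the difference between nude and BALB/c, and within C57J the difference between batches. With C57J 1 left out, it comes from nude and BALB/c alone. Named genes were the 5 receptors in every type, listed genes that passed, the 2 highest genes of each list in the main groupings and, for receptors that reached 5 CPM in a type, the 5 most alike genes among those that reached 10 CPM. The types with the highest level of each synthesis, transport and breakdown gene were named after their values were seen. In simulated counts for Gfra1 Bmp6 LS neurons, 38 of 100 genes changed by a log2 of 1 and 96 of 100 changed by 2 were recovered. The simulation used a fixed dispersion shared by all genes and changed only genes with a mean of at least 20 UMIs per library. Its recovery therefore does not measure that of receptors with fewer UMIs. Values of some genes that these rules select are not reported here.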

Additional observations from a re-analysis of the deposited data

Results flagged for a closer look

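A pair of differences in Drd3 between types stood out. Types whose Drd3 moved in opposite directions between backgrounds were paired after their values were seen, in 9 pairs over 3 receptors, and the difference of the 2 changes was tested with edgeR in a fit with the library as a block. In the tests of single types, the log2 change of Drd3 was positive in Gfra1 Bmp6 LS neurons (0.63). It was negative in Onecut2 Dcdc2a direct pathway-like neurons (-0.40) and in Ebf1 Slc7a2 striatal neurons (-2.35). The signed difference on the log2 scale was 1.03 ± 0.24 against Onecut2 Dcdc2a neurons (SE, edgeR adjusted p = 0.0182). Against Ebf1 Slc7a2 neurons, which had few Drd3 UMIs in nude (85 nuclei) and BALB/c (61 nuclei), it was 3.02 ± 0.37 (edgeR adjusted p = 0.000151). In these fits 52 of 10775 and 34 of 9816 genes passed. Against Dkk3 Adamts18 astrocytes the difference was 1.38 ± 0.35 (edgeR adjusted p = 0.444). The 4 pairs for Drd2 and the 2 pairs for Drd1 did not pass (edgeR adjusted p from 0.142 to 0.942). Because the pairs were chosen by these values, the p-values are not independent evidence.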

How the results depend on the processing

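No paired analysis was possible because each library came from a separate pool of mice and the labels name no pairing. Under settings other than leaving out a library, receptor levels moved by less than 1 SD in 218 of 240 comparisons. Among the levels named first, Drd1 in Otof Adarb2 neurons was 127.3 CPM after thinning, Drd2 in Met Stac2 neurons 96.3 CPM with the receptors among the clustering genes and 85.4 CPM as a mean over nuclei, and Drd3 in Dkk3 Adamts18 astrocytes 189.7 CPM at clustering resolution 2. Receptor calls in single types, 0 as reported, were 5 without the filter on low counts, 1 at resolution 2, 1 with another seed, and 0 to 6 when a library was left out (2 without C57J 2, 6 without nude). In groupings, 0 as reported, they were 4 without the filter and 0 to 3 when a library was left out (3 without C57J 2, 2 without nude). Calls of listed genes in single types, 5 as reported, were 3 without TMM, 20 without the filter, 3 with doublets kept, 8 with stricter limits, 0 after thinning and 5 to 69 when a library was left out (10 without C57J 1, 10 without C57J 2, 69 without nude). In groupings, 2 as reported, they were 1 with DESeq2, 10 without the filter, 1 with stricter limits, 0 at resolution 2, 1 with another seed, 1 with the receptors included, 0 after thinning and 2 to 7 when a library was left out (3 without C57J 1, 6 without C57J 2, 7 without nude).

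Of the log2 differences without nude, that of Drd3 was 0.81 in Gfra1 Bmp6 neurons and -2.47 in Ebf1 Slc7a2 neurons. The direction turned for Drd2 in Met Stac2 neurons at resolution 2 (-0.073), after thinning (-0.27) and without C57J 2 (-0.015, range -0.015 to 0.14 over the libraries left out), for Drd3 in Pkib Sntb1 neurons after thinning (0.33), without C57J 1 (0.091) and without BALB/c (0.071, range -0.18 to 0.091), and for Drd2 in Upb1 Adora2a neurons without C57J 2 (-0.016, range -0.016 to 0.37). A background left with 1 library was assumed to vary like the other. The causes were not tested. The 5 genes most like a receptor kept 2 genes for Drd1, Drd3 and Drd5 with a pseudocount of 0.1, and 3, 2, 3 and 1 for Drd1, Drd2, Drd3 and Drd5 at resolution 2. In 12 cases a type had no counterpart under another clustering and gave no value. With 2 libraries a background, 38 of 100 genes changed by a log2 of 1 were recovered in simulated counts for Gfra1 Bmp6 neurons. Sparse genes were not among those changed, so this does not measure the recovery of sparse receptors. Drd4 and Drd5 were too sparse for single types.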
